A study of Mus musculus with 6 samples.

Results

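The lipases, plasma enzymes, receptors and assembly proteins that remodel lipoproteins were examined in liver RNA as 9 genes, namely Lpl, Lipc, Lcat, Pltp, Scarb1, Vldlr, Lrp1, Mttp and Apobec1. They were chosen for function, with earlier results of these data known. Every probe set whose only gene symbol in the platform's gene table is one of them was taken. That gave 11 of the 12488 probe sets on the array, for 8 of the 9 genes. Lipc, the hepatic lipase gene, has none under that rule and is not analysed here. Livers came from C57BL/6 mice, an inbred strain widely used in diet studies, and their RNA was hybridised to Affymetrix mouse arrays, with 3 arrays for a high fat Western style diet and 3 arrays for a low fat diet, each diet given for 12 weeks. The labels give no genotype beyond the strain and no sex or age, although the keywords on every sample include LDL receptor deficiency, and whether these mice carried it cannot be told from the labels. They also do not say whether an array holds 1 mouse or a pool, so p-values measure the spread between these arrays. The diets are the only comparison in the design.

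Triglyceride travels in plasma inside chylomicrons and very low density lipoproteins, and lipases at the vessel wall release its fatty acids. Lipoprotein lipase, encoded by Lpl, does this mainly in muscle and fat, and the adult liver normally makes little of it. The liver assembles very low density lipoprotein with the microsomal triglyceride transfer protein, takes remnants up through receptors of the low density lipoprotein receptor family, and secretes enzymes that reshape high density lipoprotein in plasma.

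Values are the deposited linear intensities, and all arrays had been scaled to the same trimmed mean. Differences are on the log2 scale after values under 68.9, the pooled 30th percentile, had been set to that floor. Testing required 3 or more of the 6 arrays above the floor, and 8950 probe sets were tested with limma over the whole array, with Benjamini-Hochberg adjustment and a threshold of 0.05. Of the 11 member probe sets, 10 passed this filter. Hepatocyte markers were high on every array, with albumin (Alb) between 38398 and 49245 in the high-fat samples and between 34920 and 46802 in the low-fat samples. Of the 5 tested hepatocyte markers, 3 had a positive log2 fold change and 0 passed the threshold. Tat was lower in the high-fat samples without overlap, with a log2 fold change of -0.79 (adjusted p = 0.0742). The ratio of the 3' to the 5' control probe set of Gapdh, a measure of RNA integrity, was 1.12 ± 0.20 in the high-fat samples and 0.977 ± 0.133 in the low-fat samples (SD, n = 3 each; exact two-sided permutation p = 0.3, with 0.1 as the lowest p possible for 3 against 3). The same ratio was 1.79 ± 0.17 in the high-fat and 1.65 ± 0.10 in the low-fat samples for beta-actin (exact permutation p = 0.3), and 5.84 ± 2.83 in the high-fat and 3.64 ± 0.93 in the low-fat samples for pyruvate carboxylase (exact permutation p = 0.4). High-fat array 2 held 1771 for Acta1, the skeletal muscle actin, against 19.4 and 22.3 on the other high-fat arrays and 21.4 to 60.0 in the low-fat samples.

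Lpl read higher on the high-fat diet with both of its probe sets, of which the dimmer passed the threshold by a narrow margin and the brighter narrowly missed it. The dimmer one was above the floor on 3 high-fat arrays and 1 low-fat array, so its high-fat arrays alone admitted it to the test. No probe set of another member passed. Of the 10 tested member probe sets, 1 rose, 0 fell and 9 did not pass, where 0.827% of all tested probe sets passed in either direction and 0.402% passed as higher. Before adjustment 2 of the 10 had a p under 0.05, both for Lpl, against 9.07% of all tested probe sets. High-fat and low-fat arrays were separate, without overlap, for 2 of the 10, both for Lpl, where 14.1% of all tested probe sets were separate in this way. The median log2 fold change was 0.12 over the 10 member probe sets and 0.06 over the 8 that do not measure Lpl, against 0.00 over all tested.

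**Figure D1:**
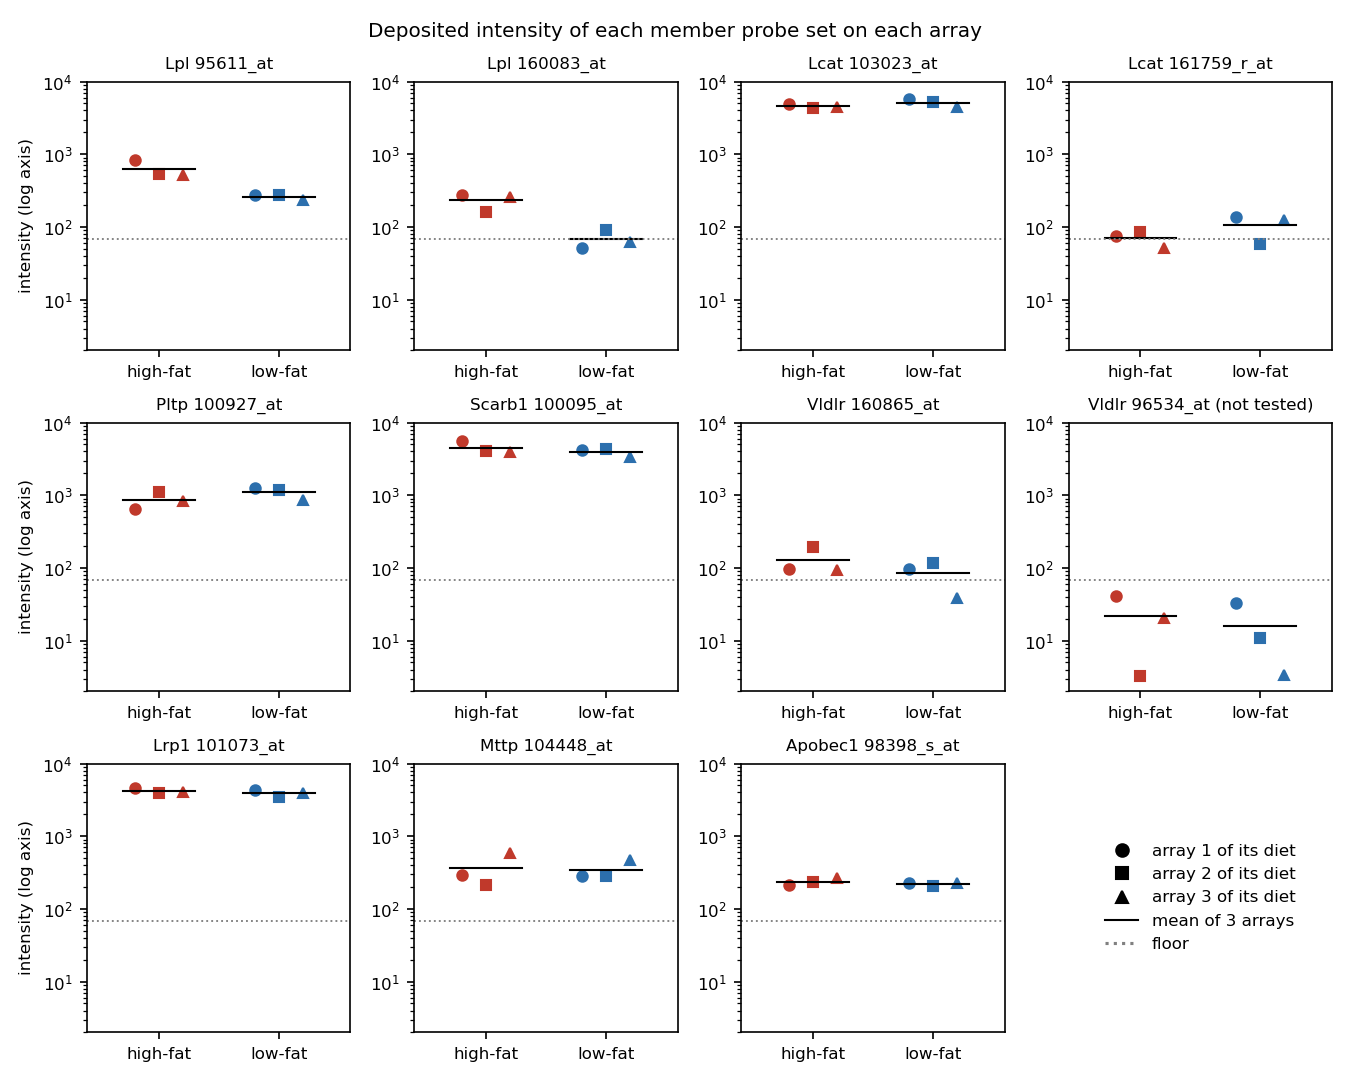
Deposited intensity of each of the 11 member probe sets on a log axis, with 1 point per array, high-fat arrays in red at the left and low-fat arrays in blue at the right of each panel. Black lines are means of 3 arrays and the dotted line is the floor of 68.9. In both Lpl panels every high-fat array lies above every low-fat array, and in the other panels the diets overlap.

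Lpl is represented by 2 probe sets, 95611_at and 160083_at. Probe set 95611_at read 840.0, 529.8 and 513.8 in high-fat samples 1, 2 and 3, against 273.5, 276.1 and 235.3 in the low-fat samples. Each high-fat array was above each low-fat array, and high-fat array 1 stood above the other high-fat arrays. Its mean was 628 ± 184 in the high-fat samples and 262 ± 22.8 in the low-fat samples (SD, n = 3 each). The log2 fold change was 1.23 ± 0.23 (SE), or 2.34-fold with a 95% interval from 1.63 to 3.36, and the adjusted p of 0.0539 missed the threshold.

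Probe set 160083_at read 270.6, 162.0 and 260.5 in the high-fat samples, against 51.4, 90.6 and 61.7 in the low-fat samples. The diets again did not overlap, and low-fat arrays 1 and 3 lay under the floor. Its mean was 231 ± 60.0 in the high-fat samples and 67.9 ± 20.3 in the low-fat samples (SD, n = 3 each). The log2 fold change was 1.58 ± 0.29 (SE), or 2.98-fold with an interval from 1.89 to 4.71, and its adjusted p of 0.0499 placed it as the last of the 74 probe sets that passed on the array. With 2 of the 3 low-fat values set to the floor, the size of this fold depends on the floor. The mean of both probe sets, an alternative chosen after the data were seen, was 1.40 ± 0.24 higher in log2 (SE), and its adjusted p over 6557 genes was 0.0402. This mean includes the floored values of 160083_at, so it is no independent check. In that fit 0.793% of the 6557 genes passed.

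**Figure D2:**
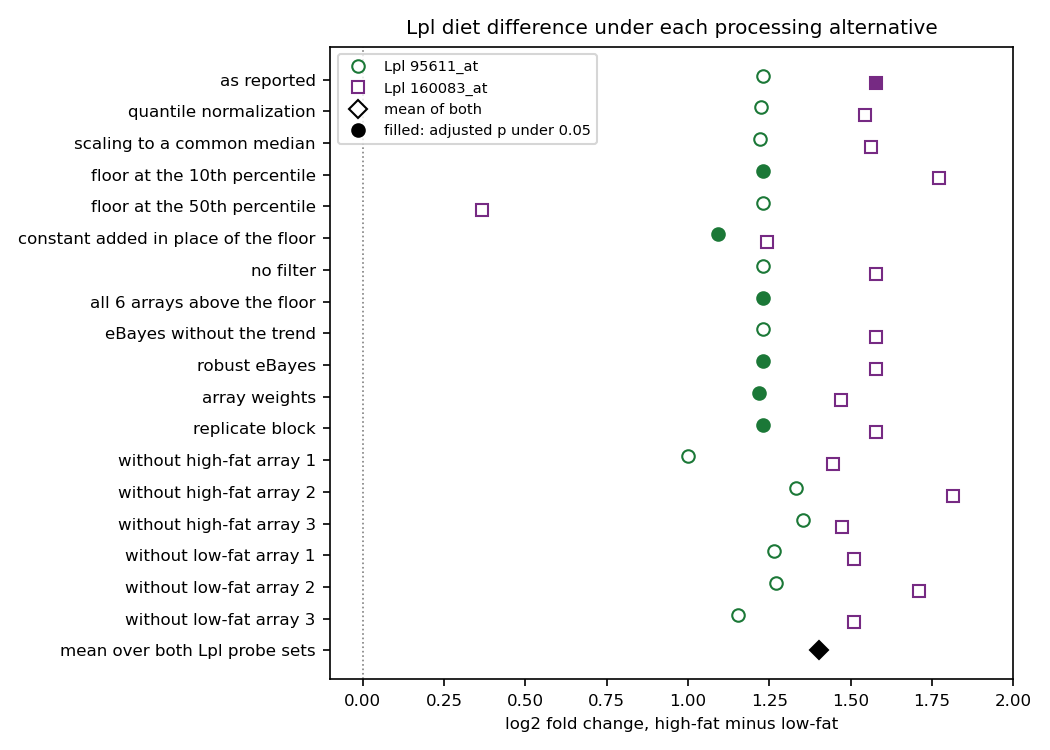
Log2 fold change of Lpl, high-fat minus low-fat, on the x axis under the reported processing and each alternative on the y axis. Circles are probe set 95611_at, squares 160083_at and the diamond the mean of both, and filled symbols have an adjusted p under 0.05. All symbols lie above 0, those of 95611_at between 1.0 and 1.35 and those of 160083_at between 0.37 and 1.81. The square is filled only under the reported processing and the circle in 6 of 17 alternatives, with neither filled in the others. The diamond is filled.

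The Lpl difference was above 0 in every alternative run for both probe sets, and its call was not stable. With 1 array left out, the log2 fold change ran from 1.0 to 1.35 for 95611_at and from 1.44 to 1.81 for 160083_at, and neither probe set passed in any of the 6 cases, where adjusted p-values ran from 0.0689 to 0.176. Without high-fat array 2, which held the high Acta1 value, the differences were 1.33 and 1.81 (adjusted p = 0.150 and 0.0689). The call of 160083_at was lost in each of its 16 alternatives, and 95611_at passed in 6 of 17.

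Macrophages, including the resident Kupffer cells of the liver, are known to express Lpl, and in whole liver more cells of a type cannot be told apart from more RNA per cell. The summed intensity of 9 macrophage markers ran from 7448 to 9900 in the high-fat samples and from 6158 to 7259 in the low-fat samples, without overlap (exact permutation p = 0.1, the smallest possible). The log2 fold change of all 8 tested markers was positive (median 0.32), and 0 passed the threshold with limma, while 2 (Ctss and C1qa) had an unadjusted p under 0.05. High-fat and low-fat arrays were separate for C1qa and Ctss, with log2 fold changes of 0.48 and 0.53. They overlapped for the other tested markers, with Cd68 at 0.20, Adgre1 at 0.40, Lyz2 at 0.25, Clec4f at 0.38, Csf1r at 0.26 and Cd14 at 0.06. Over all 8950 tested probe sets, 4518 had a positive log2 fold change. An unadjusted p under 0.05 was found for 9.07% of them, and 14.1% were separate between the diets. The scavenger receptor gene Marco was too dim to test, at 141.2, 50.4 and 155.3 in the high-fat samples and 26.2, 37.3 and 23.9 in the low-fat samples. The part of these cells in the Lpl difference was not tested.

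Fat and muscle, the main sites of Lpl, were checked in the same way. Summed adipocyte markers ran from 14811 to 24697 in the high-fat samples and from 17835 to 22594 in the low-fat samples, mostly from Car3, which hepatocytes also express. Of the defining adipocyte genes, Adipoq read 92.5, 200.4 and 48.3 in the high-fat samples and 59.4, 109.5 and 85.9 in the low-fat samples, and Retn lay under the floor on all 6 arrays. The leptin gene Lep read 947.4, 1050.5 and 976.5 in the high-fat samples and 891.1, 1118.1 and 564.4 in the low-fat samples, with overlap and a log2 fold change of 0.26 (adjusted p = 0.833). Summed muscle markers ran from 469 to 2542 on the high-fat diet, the highest on array 2, and from 501 to 760 in the low-fat samples. Acta1 made up 1770.6 of that 2542. On the same array Ckm read 156.4 and Myh4 305.5, within their low-fat ranges of 122.7 to 176.6 and 172.0 to 349.6. Mb read 48.6, under the floor, and Tnnt3 read 260.9, above its low-fat range of 112.1 to 129.4. On high-fat array 2, Lpl read 529.8 with 95611_at and 162.0 with 160083_at. The part of fat or muscle RNA in the Lpl difference was not tested.

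Over the 6 arrays, the tested genes whose log2 values followed Lpl (95611_at) most closely were Cyp2d26, Sf3a1 and Ptpn23, with Pearson's r of 0.996, 0.987 and 0.986 and Spearman's rho of 0.886, 0.943 and 0.880. These are the highest of 6556 genes, of which 89 had an r over 0.9, so the ranking describes 6 arrays that share 2 diets. Ptpn23 had a log2 fold change of 1.16, and those of Cyp2d26 and Sf3a1 were 0.23 and 0.16, with adjusted p-values of 0.119, 0.664 and 0.897.

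**Figure D3:**
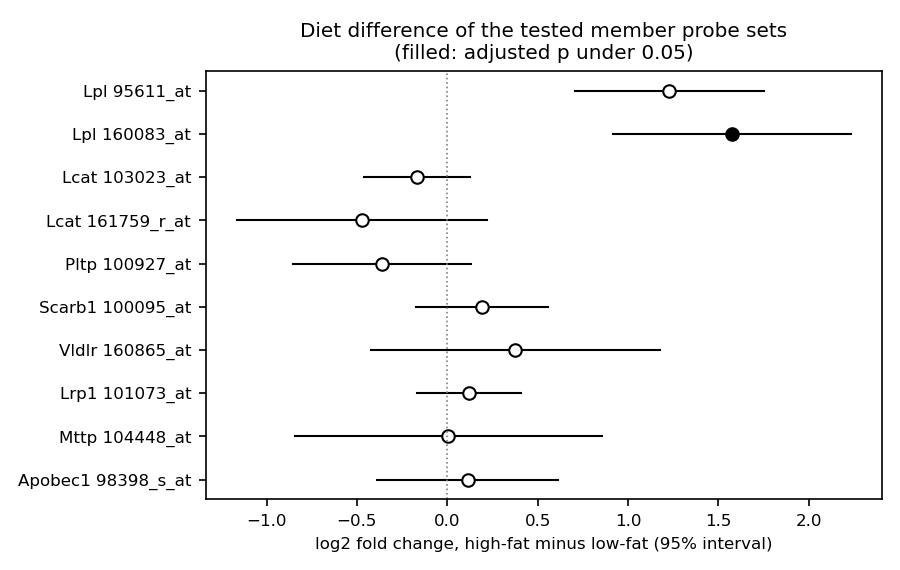
Log2 fold change, high-fat minus low-fat, of the 10 tested member probe sets with 95% intervals from limma. The filled point has an adjusted p under 0.05. Both Lpl intervals lie above 0, and the intervals of the other 8 probe sets include 0.

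The plasma enzymes and transfer proteins did not pass. Lcat encodes lecithin-cholesterol acyltransferase, which esterifies cholesterol on high density lipoprotein. Its brighter probe set, 103023_at, read 4826.8, 4353.1 and 4414.4 in the high-fat samples and 5745.2, 5202.6 and 4405.3 in the low-fat samples. The diets overlapped through low-fat array 3, and the log2 fold change of -0.17 ± 0.13 (SE, adjusted p = 0.801) had an interval that runs from a ratio of 0.726 to 1.09. The second Lcat probe set, 161759_r_at, lay near the floor, at 51.2 to 84.5 in the high-fat samples and 58.0 to 136.8 in the low-fat samples, with a log2 fold change of -0.47 (adjusted p = 0.746).

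Pltp encodes the phospholipid transfer protein, which moves phospholipid from triglyceride-rich particles to high density lipoprotein. It read 654.4, 1091.0 and 837.6 in the high-fat samples, against 1258.9, 1179.0 and 854.9 in the low-fat samples. Low-fat array 3 lay within the range of the high-fat arrays. The log2 fold change was -0.36 ± 0.22 (SE, adjusted p = 0.720), and the interval of the ratio ran from 0.554 to 1.09.

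Of the receptors, Scarb1 encodes the scavenger receptor that takes cholesteryl ester from high density lipoprotein into hepatocytes. It read 5548.9, 4085.6 and 3919.4 in the high-fat samples and 4133.7, 4277.5 and 3369.0 in the low-fat samples. High-fat array 1 was the highest and the rest overlapped, with a log2 fold change of 0.19 ± 0.16 (SE, adjusted p = 0.827). Lrp1, a large endocytic receptor for remnants, read 4617.3, 3949.2 and 4035.9 in the high-fat samples and 4298.7, 3448.4 and 3874.8 in the low-fat samples. It varied little, 1.34-fold between its lowest and highest array, and its log2 fold change was 0.12 ± 0.13 (SE, adjusted p = 0.875), with a ratio between 0.890 and 1.33.

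Vldlr, a receptor for triglyceride-rich particles that works beside lipoprotein lipase mainly outside the liver, was dim. Probe set 160865_at read 95.3, 192.9 and 92.9 in the high-fat samples and 96.2, 117.8 and 38.9 in the low-fat samples. The arrays overlapped, low-fat array 3 was under the floor, and the log2 fold change of 0.38 ± 0.35 (SE, adjusted p = 0.851) had a wide interval, with the ratio between 0.745 and 2.26. Probe set 96534_at lay under the floor on all 6 arrays, between 3.3 and 40.6 in the high-fat samples and between 3.4 and 32.9 in the low-fat samples, and was not tested.

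Of the assembly and editing genes, Mttp encodes the large subunit of the microsomal triglyceride transfer protein, which loads lipid onto apolipoprotein B. It read 290.2, 216.1 and 593.4 in the high-fat samples and 279.9, 283.1 and 464.3 in the low-fat samples. The array numbered 3 was the highest in each diet. These arrays also had the lowest Gapdh 3' to 5' ratios, 0.889 in the high-fat samples and 0.824 in the low-fat samples. The same held for pyruvate carboxylase, at 2.622 and 2.645. It did not hold for beta-actin. There high-fat array 3 was at 1.794, against 1.615 and 1.963, and low-fat array 3 at 1.753, against 1.627 and 1.556. The part of RNA integrity in the Mttp values was not tested. The log2 fold change was 0.01 ± 0.38 (SE, adjusted p = 0.999), and it was -0.41 without high-fat array 3 and 0.32 without high-fat array 2, so no direction can be given. The interval of the ratio ran from 0.558 to 1.81.

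Apobec1 encodes the cytidine deaminase that edits the apolipoprotein B transcript to its short form, which mouse liver does as well as gut. It read 213.1, 237.6 and 263.7 in the high-fat samples and 227.3, 204.7 and 226.8 in the low-fat samples. The arrays overlapped, and the highest was 1.29 times the lowest. The log2 fold change was 0.11 ± 0.22 (SE, adjusted p = 0.950). Its probe set, 98398_s_at, carries the suffix for probes shared between transcripts, so the reading may include others.

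Spread within a diet differed between members. The coefficient of variation of the 3 arrays was between 5.69% and 8.65% for Lcat (103023_at) and Lrp1 in the high-fat samples and between 11.0% and 13.2% in the low-fat samples. For Mttp it was 54.5% in the high-fat samples and 30.8% in the low-fat samples. For Vldlr (160865_at) it was 44.9% in the high-fat samples and 48.4% in the low-fat samples. For Lpl 95611_at it was 29.3% in the high-fat samples and 8.73% in the low-fat samples. No alternative brought a member other than Lpl past the threshold, in 133 refitted values of 8 probe sets.

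A list of 59 other genes, of plasma lipoprotein handling and of further lipases, was chosen for function, with earlier results of these data known. Of these, 41 had a tested probe set, and 1 probe set stood for each gene. Of the 41, 2 rose (Apoc2 and Mgll), 0 fell and 39 did not pass, where 0.915% of all 6557 genes passed. The median log2 fold change was 0.11, against 0.01 over all genes, and high-fat and low-fat arrays were separate for 13 of the 41, against 14.5% of all genes.

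**Figure D4:**
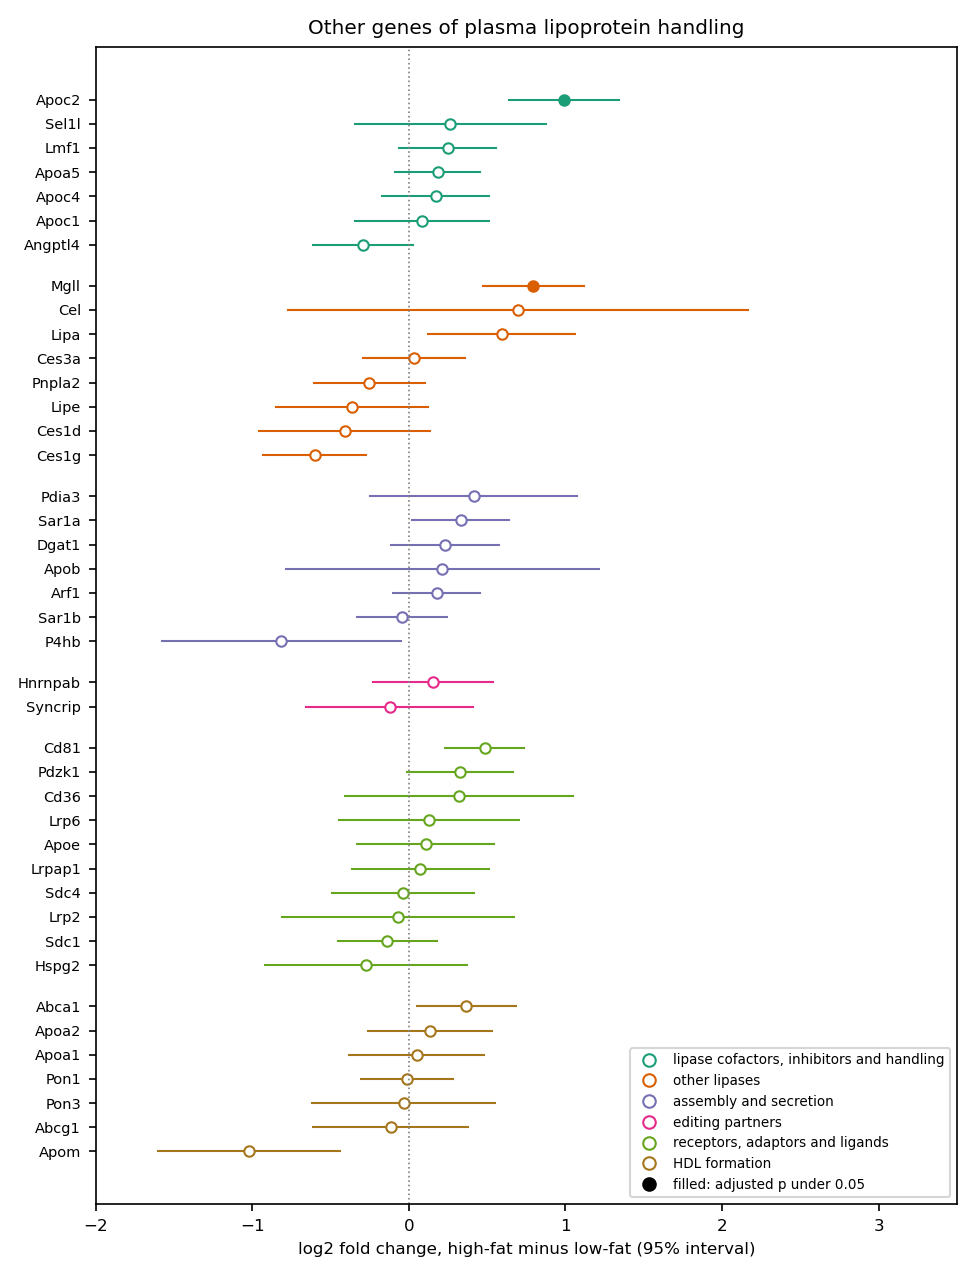
Log2 fold change, high-fat minus low-fat, with 95% intervals for 41 other genes of plasma lipoprotein handling and further lipases, coloured by role and sorted within each role. The filled points, Apoc2 at 0.99 and Mgll at 0.79, have an adjusted p under 0.05, and Apom lies lowest at -1.02.

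Of 7 tested genes for lipase cofactors, inhibitors and handling, 1 rose and 6 did not pass. Apoc2 encodes the obligate cofactor of lipoprotein lipase. It read 12457.5, 12794.4 and 11011.5 in the high-fat samples, against 6834.3, 6635.2 and 4927.5 in the low-fat samples. The diets did not overlap, and the log2 fold change was 0.99 ± 0.15 (SE, adjusted p = 0.0223). With 1 array left out it stayed between 0.84 and 1.08, and among these 6 cases the call held only without high-fat array 3. Angptl4 encodes an inhibitor of lipoprotein lipase and was named after its values were seen. It read 999.8, 991.9 and 848.2 in the high-fat samples and 1011.1, 1263.7 and 1211.0 in the low-fat samples, without overlap but with a log2 fold change of -0.29 ± 0.14 (SE, adjusted p = 0.607). The other tested Angptl4 probe sets were at -1.25 and -0.18 (adjusted p = 0.669 and 0.813). Also named after their values were seen, the lipase maturation factor gene Lmf1 was at 0.25 (adjusted p = 0.678), and Apoa5, whose protein aids plasma triglyceride clearance, was at 0.19 (adjusted p = 0.746). The other tested genes of this role, Sel1l, Apoc4 and Apoc1, were at 0.26, 0.17 and 0.09 (adjusted p = 0.869, 0.834 and 0.957).

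Of 8 other lipases tested, 1 rose and 7 did not pass. Mgll, the monoacylglycerol lipase, read 1491.1, 1930.4 and 1751.8 in the high-fat samples, against 972.3, 1105.4 and 898.4 in the low-fat samples. The diets did not overlap, and the log2 fold change was 0.79 ± 0.14 (SE, adjusted p = 0.0447), and with 1 array left out the call held only without high-fat array 1. For a second, dimmer Mgll probe set it was 0.41 (adjusted p = 0.829). Lipa, the lysosomal acid lipase, and the carboxylesterase Ces1g, both named after their values were seen, had log2 fold changes of 0.59 (adjusted p = 0.402) and -0.60 (adjusted p = 0.147), and high-fat and low-fat arrays were separate for both.

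The remaining roles had 0 genes past the threshold with limma, of 7 for assembly and secretion, 2 for editing partners, 10 for receptors, adaptors and ligands and 7 for high density lipoprotein formation. At an unadjusted p under 0.05 the numbers were 2, 0, 1 and 2, where 623 of all 6557 genes had such a p. In assembly, Sar1a, a small GTPase of vesicles leaving the endoplasmic reticulum, was at 0.33 (adjusted p = 0.511). P4hb, the small subunit of the transfer protein that Mttp belongs to, was at -0.81 (adjusted p = 0.512) with its brighter probe set. The other P4hb probe set was at 0.05 ± 0.25 (SE, adjusted p = 0.983) and gives no direction. Hnrnpab and Syncrip, RNA-binding partners of the editing enzyme, were at 0.15 and -0.12 (adjusted p = 0.880 and 0.948).

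Cd81, a membrane tetraspanin, read 2820.5, 2876.2 and 2778.7 in the high-fat samples and 2164.1, 2055.6 and 1854.0 in the low-fat samples. These did not overlap, and the log2 fold change was 0.48 ± 0.11 (SE, adjusted p = 0.120). Pdzk1, the scaffold that holds the Scarb1 receptor at the hepatocyte surface, was at 0.33 (adjusted p = 0.577). Apom, an apolipoprotein of high density lipoprotein, read 3403.2, 1745.2 and 1701.5 in the high-fat samples and 5165.0, 4457.4 and 3668.8 in the low-fat samples. The diets did not overlap, and the difference of -1.02 ± 0.26 (log2, SE) did not pass (adjusted p = 0.180), while without high-fat array 1 the adjusted p was 0.0129. Abca1, the cholesterol exporter that starts high density lipoprotein formation, was at 0.37 (adjusted p = 0.458). Its other tested probe set was at -0.03 ± 0.69 (SE, adjusted p = 0.997) and gives no direction.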

How the data were processed

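Liver RNA was measured on 6 arrays, 3 a diet, grouped by their titles. The table deposited by the authors holds 1 linear intensity per probe set and array, and how it was computed from the scans is not stated in the labels. Trimmed means (2% off each end) were 500.4 on every array, so the deposited scaling was kept. The number of arrays limits the precision. Genes came from the platform's gene table, in which 10855 probe sets had 1 symbol, 396 several and 1237 none listed.

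Intensities were floored at 68.9, log2 was taken, and the 66 control probe sets were left out. limma 3.58.1 in R 4.3.3 (lmFit, eBayes with a trend on intensity) tested high-fat minus low-fat, two-sided, and was tested on simulated data. The brightest tested probe set stood for a gene in the partner list. Every member probe set is named, as are partner genes past the threshold, or the 2 with the smallest p in a role without one, and the 3 genes most like Lpl. Angptl4, Lmf1, Apoa5, Sel1l, Apoc4, Apoc1, Lipa and Ces1g were added after their values were seen. Members and lists were chosen with earlier results of these data known.

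For the other marker lists, the sum over a list was compared between high-fat and low-fat arrays. The exact permutation p was 0.8 (hepatocytes), 0.9 (endothelium), 0.6 (stellate cells), 0.6 (pancreatic acinar cells), 0.8 (T and B cells) and 0.1 (intestinal epithelium). The intestinal sum was mostly Fabp2, at 2367.5 of 2440 in the high-fat and 704 of 789 in the low-fat mean. Fabp2 rose (adjusted p = 0.0120), Lct was at -0.11 in log2 (adjusted p = 0.958), and Vil1 was under the floor on all arrays.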

Additional observations from a re-analysis of the deposited data

How the results depend on the processing

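The count of member probe sets past the threshold was 1 as reported. It was 0 with quantile normalization, median scaling, a floor at the 50th percentile, no filter or eBayes without the trend, 0 with each array left out in turn, and 2 at an adjusted p of 0.10. It was 1 in the other alternatives, where the probe set that passed was 95611_at and not 160083_at. With a floor at the 50th percentile the log2 fold change of 160083_at was 0.37, since most of its values lie under that floor, and Lcat 161759_r_at could not be given a value. The count of partner genes, 2 as reported, was 1 with quantile normalization, with the floor at the 10th percentile and with a gene's probe sets averaged, and 0 with the floor at the 50th percentile, without a filter and without the trend. It was 0 to 2 with each array left out and 3 with the replicate number as a block, where Apom passed as lower (adjusted p = 0.0207). The count over all probe sets, 74 as reported, was 8 with the floor at the 50th percentile, 8 without a filter, 20 without the trend, 120 at an adjusted p of 0.10 and 25 to 74 with each array left out. Mttp had a log2 fold change of -0.00235 under median scaling and -0.0473 under array weights. Leaving out single arrays moved it from -0.41 (high-fat array 3) to 0.32 (high-fat array 2), with -0.12 and -0.11 when low-fat arrays 1 and 2 were dropped in turn. The causes were not tested.

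The replicate number as a block gave 103 calls. Arrays of the same number deviated from their diet's mean with correlations of 0.071, 0.110 and 0.306, and other pairs with -0.206 to 0.113, and the labels name no shared litter or day, so the numbers were not taken as pairs. The diet differences of the 3' to 5' ratios (Gapdh, beta-actin and pyruvate carboxylase) kept their direction on the log2 scale.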
